A study of Homo sapiens with 6 samples.

Results

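Expression of p53 target genes, cyclin-dependent kinase (CDK) inhibitors and regulators of apoptosis was examined in DLD-1 cells with and without DKK1. The members were 33 genes listed by name, and a gene was taken as measured when an array probe set carried it as its single gene symbol. This held for 31 of the 33, out of 18404 genes with a single symbol on the arrays, while BTG2 and CDKN2C were not analysed here. DLD-1, a cell line from a human colorectal adenocarcinoma, has mutated APC and mutated p53. According to the study, it makes no DKK1 of its own. The groups were DLD-1/Mock, with 3 arrays from separate dishes, and DLD-1/DKK1, likewise with 3. Both had been transduced with lentivirus and given doxycycline for a day, at 10 mg/ml in the labels and at the same figure in micrograms per ml in the methods. The virus of DLD-1/DKK1 cells carried V5-tagged DKK1, a secreted Wnt inhibitor, under doxycycline control. That of DLD-1/Mock cells carried, in the words of the study, no ectopic gene. The supplement describes an eGFP reporter behind DKK1 and also a vector with eGFP alone. The cells were transduced populations, and the sources used here do not say whether dishes go back to separate transductions, so the p-values reflect the variation between dishes alone.

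The p53 protein is a transcription factor that is stabilised after DNA damage and other stress. Its targets include MDM2, which returns p53 to degradation, CDKN1A, which halts the cell cycle by blocking CDKs, and genes that promote cell death. Death is decided on mitochondria by the BCL2 family, in which BH3-only proteins oppose survival proteins and release the pore formers BAX and BAK1, and at the membrane by death receptors that activate CASP8. Many of these genes also answer to other transcription factors, so their levels do not read out p53 alone. The activity of the mutated p53 of DLD-1 cells was not tested here.

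The arrays fitted their labels. DKK1 had a log2 expression of 5.30 ± 0.38 (SD, n = 3) in DLD-1/Mock and of 12.35 ± 0.04 (SD, n = 3) in DLD-1/DKK1 (limma adjusted p = 0.00015). Colon epithelial markers had a mean log2 level of 10.69 to 10.75 in the 6 arrays. Of these 10 genes, KRT20 and CEACAM5 were the dimmest, at 5.56 and 6.31. The markers of leukocytes, fibroblasts and endothelium had mean levels of 5.65 to 5.91, with leukocyte markers at 5.72 to 5.84 in DLD-1/Mock and 5.65 to 5.68 in DLD-1/DKK1. Of the 9 measured leukocyte markers, 7 had lower means in DLD-1/DKK1 and 2 had higher means. CD14 and CD68 were lower without overlap of the groups, with log2 fold changes of -0.27 and -0.26 (limma adjusted p = 0.462 and 0.345). PTPRC, which defines leukocytes, lay at 4.34 in both groups. The part of the difference in leukocyte markers in the results was not tested. Mock 2 stood apart, with correlations of 0.9953 to 0.9969 to the other 5 arrays against at least 0.9973 among these. Among the 3 DLD-1/Mock arrays, it was the farthest from their median for 18 of the 31 genes, beside 49.7% of all genes. Without Mock 2, 4 of the 9 leukocyte markers lay above 0, and their median log2 fold change was -0.01 against -0.05 with it. Of 6 endothelial markers, 0 lay above 0 with Mock 2 (median -0.08) and 1 without it (median -0.01). Of 8 fibroblast markers, 3 lay above 0 with and without it.

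No member of the group differed with DKK1 after correction over all probe sets. With limma, 0 of the 31 genes passed an adjusted p of 0.05, against 0.136% of all genes (25 of 18404). An unadjusted p under 0.05 was reached by 3 of the 31, TNFRSF10A, DAPK1 and SESN2, all with higher means in DLD-1/DKK1. This was 9.68% of the members, beside 10.1% of all genes, of which 4.67% were in this direction. The log2 fold changes of the members ran from -0.13 for CDKN1A to 0.23 for TNFRSF10A. Their median was 0.02 against -0.01 for all genes, and 19 of the 31 (61.3%) lay above 0, beside 46.4% of all genes. Without Mock 2, 16 members lay above 0 and 15 below, and 18 log2 fold changes moved by over 1.5 times or turned, 0 of them among the 3 genes with an unadjusted p under 0.05. For 8 of the 31 genes (25.8%) all arrays of one group lay above all of the other, beside 19.5% of all genes. Of these 8, 5 were higher in DLD-1/DKK1 (TNFRSF10A, DAPK1, SESN2, TP53INP1 and BCL2L11), beside 9.69% of all genes, and 3 were lower (CDKN1A, TNFRSF10B and BID), beside 9.8%.

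**Figure D1:**
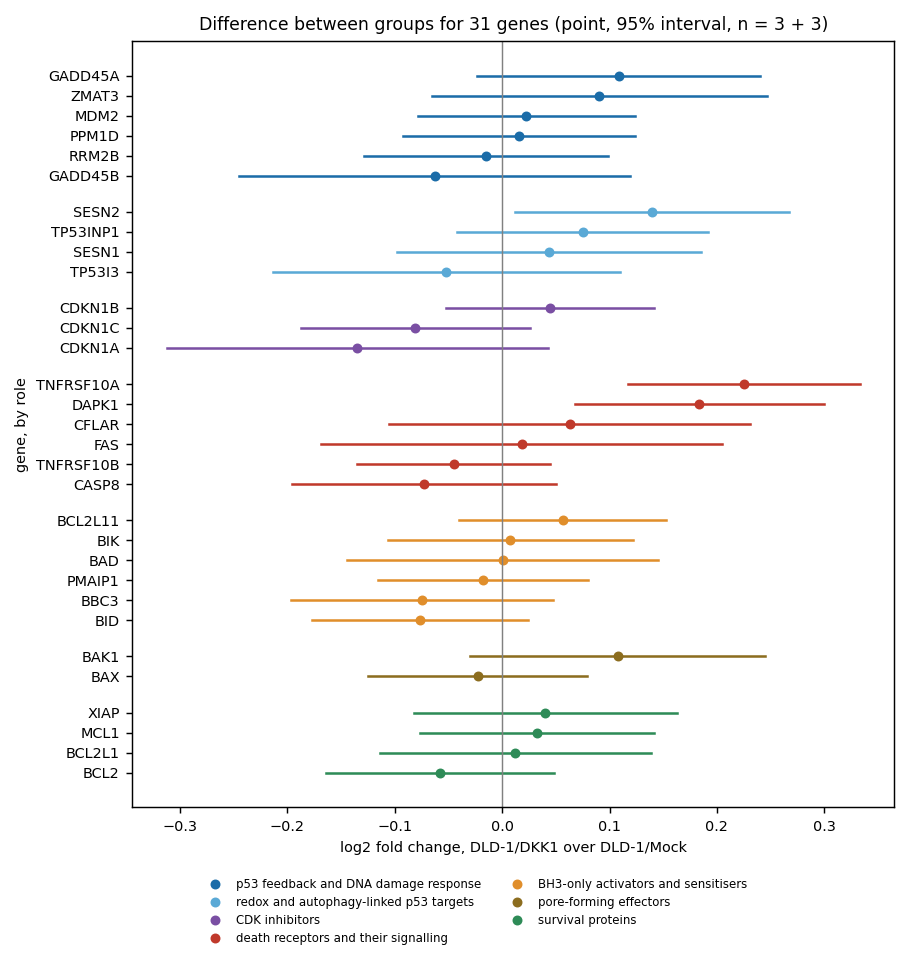
Each of the 31 measured genes, grouped and coloured by role, with its log2 fold change of DKK1 over Mock cells on the horizontal axis. Points are limma estimates from 3 arrays per group, and lines their 95% intervals. The intervals of TNFRSF10A, DAPK1 and SESN2 lie above 0, and the other 28 include 0.

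The size of a change that these arrays could have missed was limited. Taken one by one, the 95% intervals of 27 of the 31 genes lay within 1.2-fold in both directions, and those of 7 lay within 1.1-fold. The largest increase inside any interval was 1.26-fold, for TNFRSF10A, and the largest decrease 1.24-fold, for CDKN1A. The interval of PMAIP1 reached least far from no change, within 1.08-fold in both directions. These limits hold for the scaling of the deposited values. Median centring moved the log2 fold change of TNFRSF10A from 0.23 to 0.28 and that of PMAIP1 from -0.02 to 0.03. The spread between dishes was small, with residual SDs of 0.02 to 0.11 on the log2 scale and a median of 0.053 over the members, beside 0.0652 over all genes. These folds are ratios of array values, which compress differences of dim probe sets, and fewer cells with a transcript cannot be told apart from less RNA per cell.

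**Figure D2:**
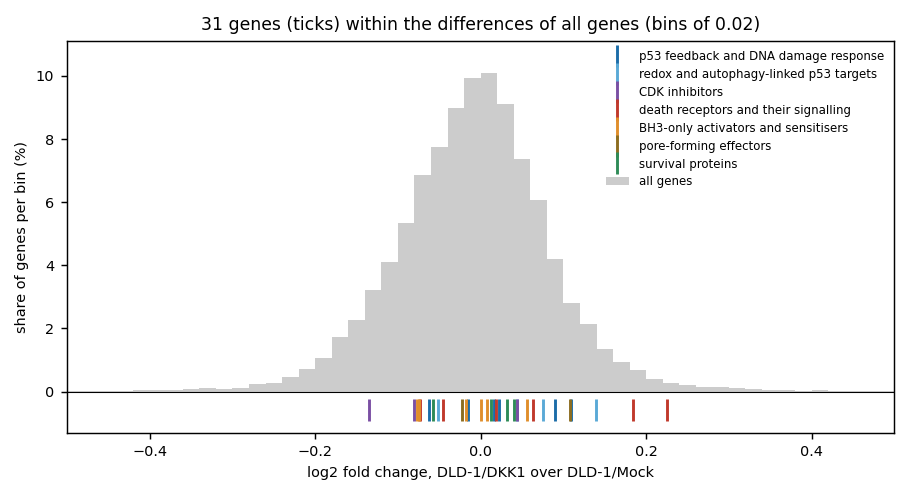
Share of all 18404 genes (vertical axis, percent per bin of 0.02) by log2 fold change of DKK1 over Mock cells (horizontal axis, cropped at 0.5, with 37 genes outside), with coloured ticks for the 31 members. The ticks run from -0.13 to 0.23, and their median of 0.02 lies beside the median of -0.01 of all genes.

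The levels of the members were then set beside those of 28 genes that are known to be restricted to other tissues, such as GFAP of glia and PRM2 of sperm, which show where dim probe sets lie. Those genes had a median log2 level of 5.58, with 90% of them up to 6.66 and the highest, ELANE, at 8.32. Of the 31 members, 29 lay above 6.66 and 19 above 8.32, so the transcripts of most were brighter than nearly all of the restricted genes. The exceptions were TP53INP1, at a mean log2 level of 5.42, and BCL2, at 6.47. In all, 12 members did not exceed the brightest restricted gene, among them TP53INP1, BCL2, SESN1 at 7.50, XIAP at 7.86 and CDKN1A at 7.88. For these 12 a level above background was not shown. Because probe sets differ in their response, no gene is ranked against another by its level. The restricted genes had a median log2 fold change of -0.06, and of -0.02 without Mock 2.

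**Figure D3:**
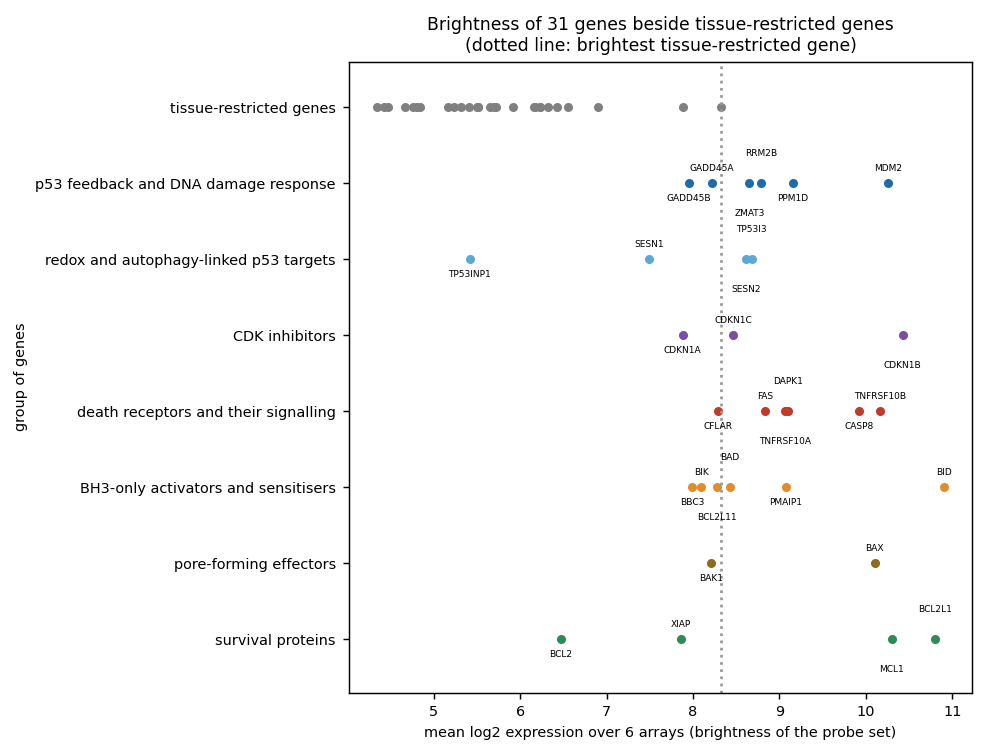
Mean log2 expression over the 6 arrays (horizontal axis) of the probe sets of 28 tissue-restricted genes (grey) and of the 31 members by role (coloured, named), with a dotted line at the brightest restricted gene, 8.32. TP53INP1 at 5.42 and BCL2 at 6.47 are the dimmest of 12 members to the left of this line, and MDM2, CDKN1B, TNFRSF10B, BID, BAX, BCL2L1 and MCL1 lie above 10.

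Among the genes of p53 feedback and the DNA damage response, 0 of 6 passed and 0 had an unadjusted p under 0.05. MDM2, the ubiquitin ligase that p53 induces and that degrades p53, had log2 values of 10.27, 10.25 and 10.22 in DLD-1/Mock and of 10.28, 10.30 and 10.22 in DLD-1/DKK1. The groups overlapped, with a log2 fold change of 0.02 (SE 0.04) and a 95% interval of -0.08 to 0.12. GADD45A, a stress sensor that binds the replication clamp, showed 0.11 on the same scale (SE 0.06, with an adjusted p of 0.585 in limma). GADD45B, its relative in stress kinase signalling, had -0.06, with the 3 DLD-1/DKK1 dishes spread from 7.76 to 8.06 and those of DLD-1/Mock from 7.96 to 8.01. PPM1D, a phosphatase that switches off the damage response, had 0.02, and RRM2B, a ribonucleotide reductase subunit for DNA repair, had -0.02. ZMAT3, an RNA-binding p53 target, had 0.09, and 0.02 without Mock 2, which held its lowest value of 8.47.

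The sestrins SESN1 and SESN2 restrain mTORC1 and serve antioxidant defence. SESN2, which is also induced by ATF4, had log2 values of 8.56, 8.49 and 8.58 in DLD-1/Mock and of 8.67, 8.76 and 8.62 in DLD-1/DKK1. All DLD-1/DKK1 arrays thus lay above all DLD-1/Mock arrays, with a mean log2 difference of 0.14 (SE 0.05) and an adjusted p of 0.524 in limma. An exact two-sided permutation test gave p = 0.1, the smallest that 3 arrays against 3 allow. SESN1 had a log2 fold change of 0.04 with overlapping groups, and 0.01 without Mock 2. TP53I3, an oxidoreductase linked to reactive oxygen, had -0.05. TP53INP1, a regulator of autophagy and of p53, had 0.08 without overlap of the groups, and 0.04 without Mock 2, at a level that was not shown to be above background.

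Of the 3 measured CDK inhibitors, 0 passed. CDKN1A, the main effector of cell cycle arrest by p53, had log2 values of 7.898, 8.104 and 7.840 in DLD-1/Mock and of 7.835, 7.767 and 7.836 in DLD-1/DKK1. The groups did not overlap, although Mock 3 lay only just above the highest DLD-1/DKK1 value, and Mock 2 alone lay above 8. The log2 fold change was -0.13 (SE 0.07; limma adjusted p = 0.609; exact permutation p = 0.1), and -0.06 without Mock 2. CDKN1C, an imprinted inhibitor of the same family, had -0.08 (SE 0.04), and CDKN1B, which is controlled mainly by protein turnover, had 0.04 (SE 0.04), and 0.02 without Mock 2.

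**Figure D4:**
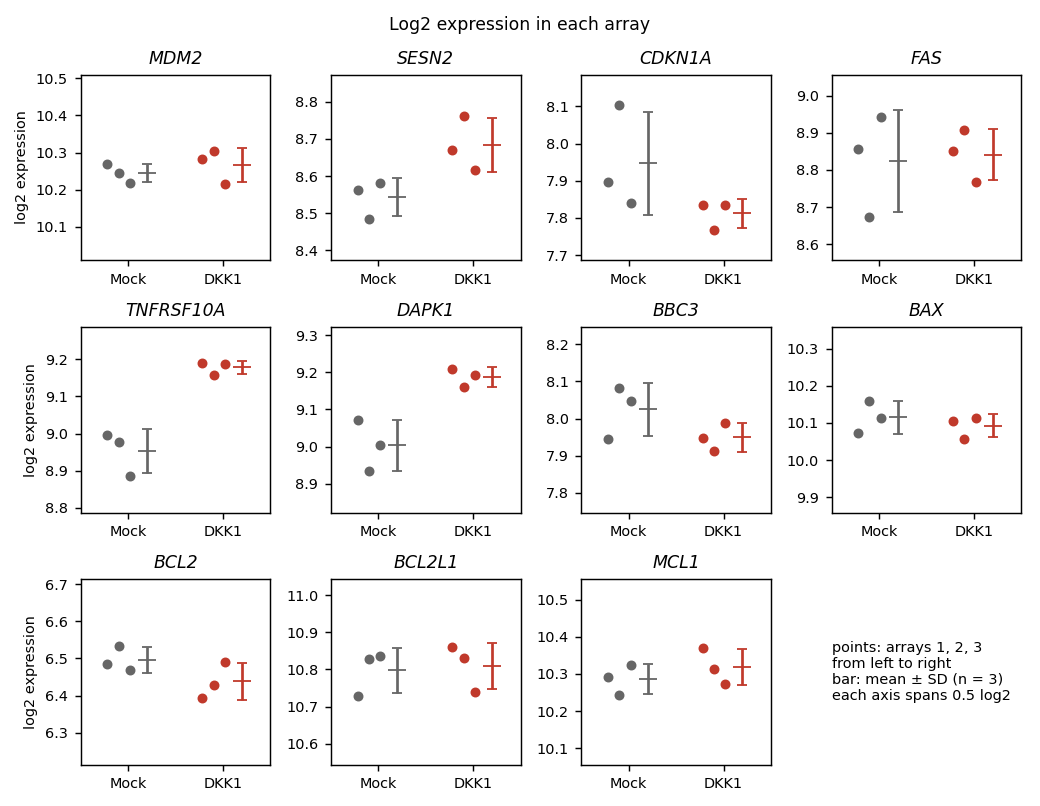
Log2 expression (vertical axes, each spanning 0.5) of 11 genes in Mock (grey) and DKK1 (red) arrays, with points for arrays 1, 2 and 3 from left to right and bars for the mean ± SD (n = 3). The groups are apart for SESN2, CDKN1A, TNFRSF10A and DAPK1 and overlap for the other genes shown.

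The members with the smallest p-values belonged to the death receptors and their signalling, where 0 of 6 passed and 2 had an unadjusted p under 0.05. TNFRSF10A, a receptor of the death ligand TRAIL, had log2 values of 8.996, 8.978 and 8.885 in DLD-1/Mock and of 9.190, 9.157 and 9.187 in DLD-1/DKK1. The lowest DLD-1/DKK1 array lay above the highest DLD-1/Mock array. The ratio was 1.17-fold, with a 95% interval of 1.08-fold to 1.26-fold (log2 fold change 0.23, SE 0.05; limma adjusted p = 0.278; exact permutation p = 0.1). Without Mock 2 the log2 fold change was 0.24. TNFRSF10B, the other TRAIL receptor with a death domain and itself a p53 target, lay at 10.16 to 10.22 in DLD-1/Mock and at 10.14 to 10.15 in DLD-1/DKK1. Its difference of -0.05 on the log2 scale (SE 0.04) turned its sign after median centring.

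DAPK1, a kinase that promotes apoptosis and autophagy, is an apoptosis gene that the study named from chromatin immunoprecipitation of DKK1 together with BCL2A1, a survival protein of the BCL2 family. The genes that the study found by both this method and its expression arrays were REPS2, IQGAP2 and LOC554202, and not DAPK1. BCL2A1 is not a member and had a log2 fold change of -0.13 with overlapping groups (SE 0.08; limma adjusted p = 0.637), at a mean log2 level of 5.13 in the range of the restricted genes. The log2 values of DAPK1 were 9.072, 8.935 and 9.003 in DLD-1/Mock and 9.209, 9.159 and 9.193 in DLD-1/DKK1, so that the groups were apart here too. The log2 fold change was 0.18 (SE 0.05; limma adjusted p = 0.408; exact permutation p = 0.1), and 0.15 without Mock 2. FAS, the receptor of FAS ligand and a p53 target, had log2 values of 8.86, 8.67 and 8.94 in DLD-1/Mock and of 8.85, 8.91 and 8.77 in DLD-1/DKK1. These overlapped fully, with a log2 fold change of 0.02 (SE 0.08) that was -0.06 without Mock 2. CASP8, the initiator caspase of the receptors, had -0.07. CFLAR, the inhibitor that competes with CASP8, had 0.06 on the probe set used and 0.05 on a further one, and -0.01 without Mock 2 on the first.

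The consensus half-site of p53, which is its own reverse complement, was looked for in RefSeq promoters (GRCh38.p14), from 250 bases before to 50 after each annotated start, and 23 of the 31 genes had at least 1 such window. It was present in 4 of their 45 windows (8.89%) and in 6.63% of all 35116 windows. Counted by gene, at least 1 window held it in 4 of the 23 genes (17.4%) and in 8.06% of all 27305 genes with a window. A gene with more windows has more chances to hold a match, and no test of the difference between these shares was made. The matches are shown because they place the letters of the half-site, a part of a full p53 site, beside genes of this set whose levels are given here. They are printed 5′ to 3′ on the strand of the gene with the half-site in capitals and 10 bases on each side.
FAS: cggaactcctGGACAAGCCCtgacaagcca
SESN1: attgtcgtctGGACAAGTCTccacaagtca
BAK1: aaagtgggcgGGACATGCTCctgggcctgg
CASP8: ctttccaataAAGCATGTCCagcgctcggg
The stretch of FAS is chr10:88991299-88991328 on the plus strand, that of SESN1 chr6:109009018-109009047 on the minus strand, that of BAK1 chr6:33580330-33580359 on the minus strand and that of CASP8 chr2:201257904-201257933 on the plus strand. The half-sites begin 122, 49, 73 and 121 bases before an annotated start of FAS, SESN1, BAK1 and CASP8. In FAS the 10 bases that follow differ from the consensus at 2 positions, and in SESN1 at 3. A full site of adjacent or closely spaced half-sites was in 0 of the 23 genes and in 0.0366% of all genes with a window. These genes had log2 fold changes of 0.02 (FAS), 0.04 (SESN1), 0.11 (BAK1) and -0.07 (CASP8), and none passed. A match is a description of letters, and p53 elements outside these windows were not looked for.

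Of the 6 BH3-only genes 0 passed, 0 had an unadjusted p under 0.05, and the median log2 fold change was -0.01. BBC3, which encodes PUMA and is a direct p53 target, had log2 values of 7.94, 8.08 and 8.05 in DLD-1/Mock and of 7.95, 7.91 and 7.99 in DLD-1/DKK1. The groups overlapped through Mock 1, and the log2 fold change was -0.07 (SE 0.05), and -0.05 without Mock 2. PMAIP1, which encodes NOXA and neutralises MCL1, had -0.02 with a 95% interval of -0.12 to 0.08. BID, which links death receptors to mitochondria once CASP8 has cut it, had -0.08 (SE 0.04), with 10.91, 10.99 and 10.93 in DLD-1/Mock above 10.83, 10.88 and 10.88 in DLD-1/DKK1. BCL2L11, which encodes BIM, had 0.06 (SE 0.04), with 8.21 to 8.29 in DLD-1/Mock below 8.29 to 8.32 in DLD-1/DKK1, the nearest arrays being 8.290 and 8.292. BIK had 0.01 and BAD, which is held inactive by phosphorylation, 0.00.

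The pore formers BAX and BAK1 did not pass either. BAX, a p53 target, had log2 values of 10.07, 10.16 and 10.11 in DLD-1/Mock and of 10.11, 10.06 and 10.11 in DLD-1/DKK1. These overlapped, with a log2 fold change of -0.02 (SE 0.04) that was 0.00 without Mock 2 and turned its sign after median centring. BAK1, which resides in the outer mitochondrial membrane, had 0.11 (SE 0.06; limma adjusted p = 0.599) and 0.07 without Mock 2.

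The survival proteins that hold BAX and BAK1 in check likewise overlapped between the groups. BCL2 had log2 values of 6.48, 6.53 and 6.47 in DLD-1/Mock and of 6.39, 6.43 and 6.49 in DLD-1/DKK1, a log2 fold change of -0.06 (SE 0.04) at a dim level. BCL2L1, which encodes BCL-XL, had 10.73, 10.83 and 10.84 in DLD-1/Mock and 10.86, 10.83 and 10.74 in DLD-1/DKK1, a log2 fold change of 0.01 (SE 0.05). MCL1, a short-lived member of the family, had 10.29, 10.24 and 10.32 in DLD-1/Mock and 10.37, 10.31 and 10.27 in DLD-1/DKK1, a log2 fold change of 0.03 (SE 0.05) that was 0.01 without Mock 2. In each of these genes the arrays of both groups overlapped. XIAP, which blocks effector caspases directly, had 0.04, and 0.00 without Mock 2.

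**Figure D5:**
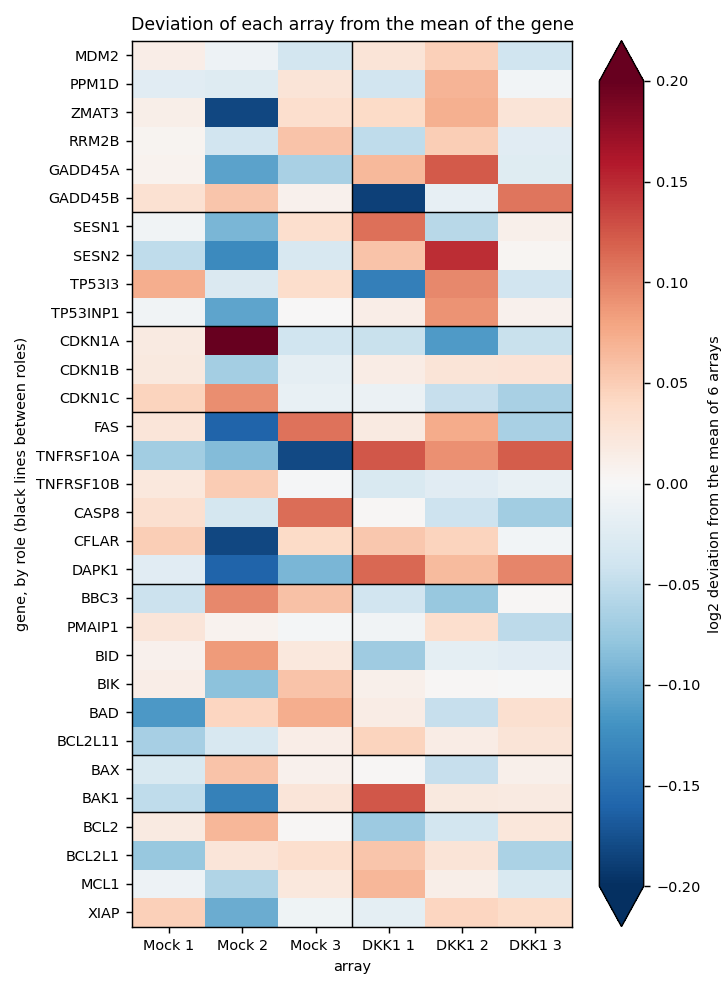
Deviation of each array (columns) from the mean of the 6 arrays for each of the 31 genes (rows, by role), on the log2 scale (colour, from -0.2 in blue to 0.2 in red). CDKN1A is highest and ZMAT3, FAS and CFLAR are lowest in Mock 2, and TNFRSF10A and DAPK1 are higher in the 3 DKK1 arrays than in the 3 Mock arrays.

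Further genes of these pathways were counted from 5 lists. Of 10 measured regulators and relatives of p53, 0 passed in either direction. Of these, 9 (90%) lay above 0, beside 46.4% of all genes, with a median log2 fold change of 0.07. Without Mock 2 the median was 0.02, with 8 genes above 0. Of 18 other p53 targets 0 passed, and 1 had an unadjusted p under 0.05, GDF15, a secreted stress cytokine, with -0.16 (SE 0.04; limma adjusted p = 0.443). Of 9 other BCL2 family genes 0 passed, and BCL2L14 had 0.16 (SE 0.05; limma adjusted p = 0.493). Of 15 caspases, apoptosome components and inhibitors of apoptosis 0 passed, and CASP6, an effector caspase, had 0.20 (SE 0.05; limma adjusted p = 0.409). Of 18 cyclins, CDKs and other CDK inhibitors 0 passed, and 0 had an unadjusted p under 0.05. The medians of the last 4 lists were -0.03, -0.02, 0.00 and 0.05, and 0.00, 0.02, 0.00 and 0.02 without Mock 2.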

How the data were processed

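Affymetrix Human Gene 1.0 ST arrays were used, 1 for each of 3 Mock and 3 DKK1 dishes. The log2 values deposited by the authors come from the affy package in R (robust multichip average, with background correction, equalised distributions and 1 summary per probe set), so a shift common to most transcripts is lost. Tool versions and the build of the annotation are not given in the sources used here. Of 32321 probe sets, 19158 carried 1 gene symbol, 1388 several and 11775 none. Symbols were updated through the gene number (19128 matched in GRCh38.p14). Per gene, the probe set with the highest mean was used.

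Samples were grouped by title. Using limma 3.58.1 and its eBayes in R 4.3.3, all probe sets entered a single two-sided comparison of the groups (residual degrees of freedom 4, prior 2.56). Benjamini-Hochberg adjustment covered the whole table, with 0.05 as the threshold. Intervals are at 95% and use the moderated standard error (SE). The number of arrays limits the precision. The members, roles and lists were chosen with earlier results of these data known, and no list was tested. Genes named with every array were MDM2, CDKN1A, BAX, BBC3, BCL2, BCL2L1, MCL1, FAS, DAPK1 and each member with an unadjusted p under 0.05. Values of single arrays for BID and the nearest arrays of BCL2L11 were added after they were seen. From other lists, up to 2 genes with the smallest such p were named. The alternatives tried were median centring, quantile normalisation, fits without dim or without unnamed probe sets, array weights, a trended and robust prior, the replicate number as a block, the mean over the probe sets of a gene and each array left out. The fit was tested on simulated data. Figures were drawn with matplotlib 3.10.9.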

Additional observations from a re-analysis of the deposited data

How the results depend on the processing

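In each of the 14 alternatives 0 members passed an adjusted p of 0.05 in limma, with 0.118 the lowest adjusted p of any member, and 0 genes of the 5 further lists passed in the 13 run on them. The limma adjusted p ranged from 0.118 to 0.715 for TNFRSF10A, from 0.226 to 0.804 for DAPK1 and from 0.357 to 0.850 for SESN2. DKK1 passed in every alternative (log2 fold change 6.91 to 7.27 with 1 array left out). After median centring, which moved the median of all genes from -0.01 to 0.05, the median of the members was 0.0682 and 5 members had an unadjusted p under 0.05, beside 12.5% of all genes (10.1% before). That number was 2 to 5 with 1 array left out, beside 5.86% to 10.6% of all genes. The 5 were without Mock 3 (4 higher and 1 lower in DLD-1/DKK1, beside 10.6% of all genes).

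The sign held for 17 of the 31 members in the alternatives run, and 14 members, none of which had passed, turned at least once. With quantile normalisation these were MDM2 (-5.24e-05), BAD (-0.00161) and BCL2L1 (-0.00519). With median centring they were RRM2B (0.0370), TP53I3 (0.000399), TNFRSF10B (0.00729), PMAIP1 (0.0345) and BAX (0.0295), and with array weights FAS (-0.0142) and BIK (-0.0114). With 1 array left out, BAD ranged from -0.0573 to 0.0367, BCL2L1 from -0.0227 to 0.0473, FAS from -0.0573 to 0.0773, CFLAR from -0.0125 to 0.103, BIK from -0.0314 to 0.0377, RRM2B from -0.0442 to 0.00909, GADD45B from -0.132 to 0.0144, SESN1 from -0.000363 to 0.0824, TP53I3 from -0.113 to 0.00295, PPM1D from -0.0144 to 0.0390 and PMAIP1 from -0.0390 to 0.00362.

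Over all probe sets, 28 passed (12 higher, 16 lower), 17 after median centring (10 higher, 7 lower), 66 above the median brightness, 100 with 1 symbol only, 53 with a trended and robust prior, 59 with array weights and 2 to 6 with 1 array left out, 6 without Mock 2. For the last, fewer arrays entered the fit. For the others the cause was not tested. With the replicate number as a block, 1 probe set passed and 2 members had an unadjusted p under 0.05, beside 7.11% of all genes. Deviations of same-numbered arrays correlated by 0.105, 0.00821 and -0.137, so the numbers were not taken to pair the dishes. The filter on brightness left no value for TP53INP1 and BCL2.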
